A study of Mus musculus with 6 samples.

Results

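Adipocytes that descend from transplanted bone marrow and were sorted from gonadal fat were compared with brown adipocytes of intrascapular fat, which lies between the shoulder blades. The comparison used 4 of the 6 arrays of the series, taken by their titles: 2 arrays of bone marrow progenitor-derived adipocytes and 2 of intrascapular brown adipocytes. It covered 17720 named genes, each read from its brightest probe set. The other 2 arrays, of gonadal white adipocytes, entered the estimate of spread, and their values are given where they help to place a gene.

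The mice with marrow-derived cells had received marrow from donors that expressed green fluorescent protein (GFP) for replicate 1 and beta-galactosidase (LacZ) for replicate 2, so the pair differs in its marker as well as in its cells. Per the labels' protocols, fat was digested with collagenase, the floating adipocyte layer was recovered, and marker-positive cells were collected by flow cytometry, LacZ with the substrate FDG. About 5000 cells went into each sort, and each sample pooled the RNA of 6 sorts or more. Brown adipocytes came from dorsal intrascapular fat after the white fat around it had been removed. Strain, age, sex, housing temperature and the promoters that drove GFP and LacZ are not given in the labels used here. Depot, donor origin and the transplant itself differ together between the groups and cannot be told apart. The arrays within a group are called biological replicates, without a statement that they came from separate animals, so each p-value measures the spread between these samples.

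Brown adipocytes burn fuel to make heat. Noradrenaline from sympathetic nerves raises cyclic AMP and lipolysis, and fatty acids then activate uncoupling protein 1, which lets protons leak across the inner mitochondrial membrane. The cells keep many small lipid droplets and dense mitochondria, a state held by regulators such as PPARγ, PRDM16, EBF2, PGC-1α and the estrogen-related receptors. White adipocytes store triglyceride in a large droplet, and fat depots keep a positional code of Hox and other patterning genes from development.

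All values are log2 expression in array units, given in the order GFP array, LacZ array and brown replicate 1, brown replicate 2. A difference is marrow-derived minus brown, followed by its standard error (SE) from limma with 2 arrays per group. An adjusted p is limma's, with Benjamini-Hochberg adjustment over the 17720 genes, and a gene is called higher or lower where it is under 0.05. The lower quartile of an array lay between 4.01 and 4.13 and the top percentile between 12.55 and 12.72, so differences that reach values near 2 to 4 or near 13 understate the fold. Precision is limited by how few arrays there are. In such bulk samples fewer cells of a type and less RNA per cell cannot be told apart.

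The marrow-derived pair was less alike than the brown pair. The root mean square difference over genes was 0.77 between the GFP and LacZ arrays and 0.40 between the brown arrays. It ranged from 1.11 to 1.21 between marrow-derived and brown arrays. The GFP and LacZ arrays differed by over 2 log2 units for 594 genes, of which 516 were higher on the GFP array. The brown arrays differed that much for 48 genes.

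Genes that mark sex differed between the groups and within the marrow-derived pair. Xist, the RNA that silences the second X chromosome of female cells, had the largest difference of all genes called higher, with 10.87 and 10.85 in the marrow-derived arrays against 3.39 and 3.36 in the brown arrays (7.48 ± 0.19, adjusted p = 0.000849). The Y-linked translation factor gene Eif2s3y was at 9.15 and 5.35 against 11.61 and 11.19 (-4.15 ± 1.19, adjusted p = 0.0664). The Y-linked demethylase genes Kdm5d (7.28 and 3.97 against 7.88 and 7.34) and Uty (5.59 and 2.81 against 7.53 and 7.36) were also lowest on the LacZ array, and none of the 3 was called. Uty was lower with an adjusted p of 0.0281 from the mean of its probe sets and 0.0416 after median centring, and Eif2s3y with 0.0383 from the mean of its probe sets. Without the GFP and the LacZ array in turn, Eif2s3y differed by -6.05 and -2.25, Uty by -4.64 and -1.85 and Kdm5d by -3.64 and -0.33. The GFP array thus held Xist and Y-linked RNA together, while the LacZ array held Xist with Y-linked genes at their lowest values. Kdm6a, an X-linked gene that escapes silencing, was higher (1.44 ± 0.17, adjusted p = 0.00746). The X-linked genes Eif2s3x (-0.20, adjusted p = 0.607) and Tsix (0.30, adjusted p = 0.365) did not pass. White arrays had Xist at 2.99 and 3.35 and Eif2s3y at 11.43 and 10.79. Sex and cell type cannot be told apart in this comparison.

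Macrophage markers also separated the GFP array from the other marrow-derived array. The mean over 30 measured markers reached 10.77 with GFP and 8.17 with LacZ, against 8.51 and 7.70 on the brown arrays. On the white arrays, also from gonadal fat, it was 11.075 and 9.59. Csf1r, the receptor for macrophage growth factor, was at 13.08 and 10.97 against 10.70 and 9.79 (adjusted p = 0.177), and Ptprc, the pan-leukocyte antigen, at 10.87 and 7.62 against 8.36 and 7.32 (adjusted p = 0.457). Adgre1 (11.79 and 8.48 against 8.81 and 7.26) and Cd68 (12.02 and 9.47 against 9.63 and 8.64) showed the same split. The median difference of the list was 1.46, and it was -0.11 and 2.90 without the GFP array and without the LacZ array, so its direction turned with the array used. Mertk, an uptake receptor for dying cells, was the 1 of 30 markers called (1.32 ± 0.18, adjusted p = 0.0101), and 9 were called without the LacZ array.

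**Figure D1:**
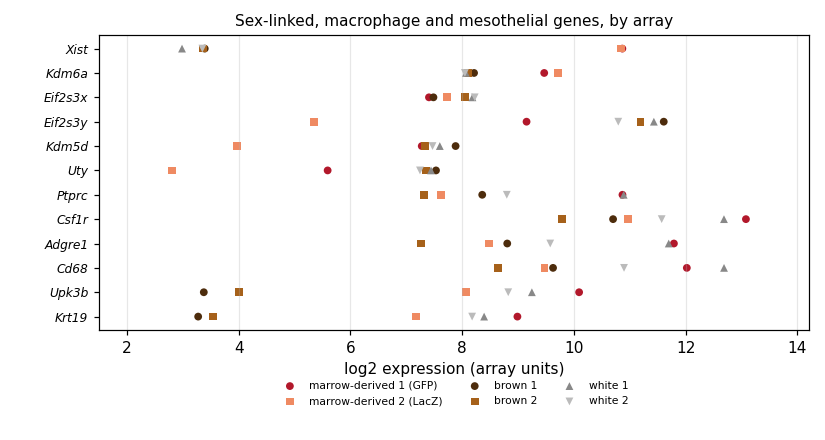
Log2 expression (x axis) of sex-linked, macrophage and mesothelial genes (y axis) on each of the 6 arrays, 1 point per array. Xist stands near 10.9 on both marrow-derived arrays and near 3.4 on both brown arrays, while Eif2s3y, Ptprc and Csf1r differ between the GFP and LacZ arrays.

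Adipocyte genes were high in both groups, though not equally. Of 20 genes shared by adipocytes 7 were lower and 0 higher, 19 differences were below 0 and the median was -1.22. Hormone-sensitive lipase (Lipe) was lower (-1.73 ± 0.23, adjusted p = 0.00917). Adiponectin (Adipoq) was at 12.70 and 11.86 in marrow-derived and 13.01 and 13.15 in brown arrays (adjusted p = 0.123). The fatty acid carrier Fabp4 was at 13.49 and 13.40 against 13.72 and 13.51 (adjusted p = 0.524) and the receptor that drives adipogenesis, Pparg, at 11.56 and 11.81 against 11.88 and 11.93 (adjusted p = 0.478). For Pparg the difference was -0.22 ± 0.20. Both groups thus carried defining adipocyte markers, and the brown arrays carried Ucp1 (13.58 and 13.53) near the top of the range.

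Limma called 1543 genes higher and 2068 lower in marrow-derived than in brown adipocytes, 8.71% and 11.7% of the genes tested and 20.4% in both directions. Of these, 1163 and 1647 differed at least 2-fold, 129 and 240 at least 8-fold, and 29 and 97 at least 16-fold. The median difference over all genes was 0.02. The counts rested on the tight brown pair: without brown replicate 1 there were 121 higher and 355 lower, and without brown replicate 2 there were 61 and 239. Without the GFP array there were 1322 and 1723, and without the LacZ array 1176 and 1634. A set of 265 genes, 51 higher and 214 lower, was called with all arrays and also without each of the 4 arrays in turn, and these are said below to have kept their call throughout. Pairs of values given without brown replicate 1 and 2, or without the GFP and the LacZ array, leave out 1 array at a time. Counts of each list below are to be read beside the shares of all genes, 8.71% higher and 11.7% lower. The lists were chosen with earlier results of these data known, so their counts are a description and not a test.

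Marrow-derived adipocytes had much lower values for the heat-producing machinery of brown fat. Of 21 measured thermogenic effectors 20 were lower and 0 higher, where 11.7% of all genes were lower, and the median difference of the list was -5.61 against 0.02 over all genes. The list holds genes chosen for their part in brown fat, so low values outside brown fat are built into it. Its mean was 7.26 and 5.47 on marrow-derived, 11.20 and 11.21 on brown and 8.02 and 7.58 on white arrays. Ucp1, the uncoupling protein, was at 7.68 and 4.93 in the marrow-derived arrays and 13.58 and 13.53 in the brown arrays, a 152-fold lower level (-7.25 ± 0.98, adjusted p = 0.0101). The GFP array stood above the LacZ array, and both were far below the brown arrays. White arrays had Ucp1 at 6.43 and 4.84. Limma called 8 and 8 lower without brown replicate 1 and 2.

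Fatty acid handling genes of the brown program were among the lowest of all. Slc27a2, an acyl-CoA synthetase and fatty acid transporter, was at 3.16 and 2.87 against 11.02 and 10.46, 211-fold lower (-7.72 ± 0.24, adjusted p = 0.000945), and it kept its call throughout. Fabp3, the heart-type fatty acid carrier, was at 7.57 and 5.53 against 13.74 and 13.65 (-7.15 ± 0.97, adjusted p = 0.0101), while its relatives Fabp4 (-0.16 ± 0.17) and Fabp5 (-0.05 ± 0.17) did not pass. Elovl3, a cold-induced elongase, was at 3.18 and 2.86 against 9.09 and 10.93 (-6.99 ± 0.61, adjusted p = 0.00387), with the brown arrays themselves apart. Acot11, a thioesterase of brown fat, was at 7.49 and 3.98 against 12.52 and 12.65 (-6.85 ± 1.22, adjusted p = 0.02). Pank1, which starts coenzyme A synthesis, was at 6.64 and 5.45 against 11.44 and 11.08 (-5.21 ± 0.41, adjusted p = 0.00345). The mitochondrial thioesterase Acot2 and the carnitine carrier Slc25a20 showed smaller differences of -1.33 ± 0.16 and -1.30 ± 0.16.

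Several of these genes split the marrow-derived pair. Cidea, a lipid droplet protein that marks brown and beige cells, was at 8.53 and 3.66 against 13.16 and 13.14 (-7.05 ± 1.57, adjusted p = 0.0346), so the GFP array stood far above the LacZ array, yet neither reached the brown arrays. The proton channel Otop1 (6.80 and 3.05 against 12.13 and 12.20, adjusted p = 0.0191) and Ucp3, a muscle and brown fat homologue of Ucp1 (6.13 and 3.65 against 9.74 and 9.68, adjusted p = 0.0166), were split the same way. Dio2, which activates thyroid hormone inside the cell, was at 6.24 and 3.60 against 9.36 and 9.84 (-4.68 ± 0.91, adjusted p = 0.0248). In the effectors Slc27a2, Elovl3, Kcnk3, Letmd1, Acot2, Slc25a20, Them4 and Aspg the pair lay within 1 log2 unit. The potassium channel gene Kcnk3 was at 7.41 and 7.91 against 11.35 and 11.69 (-3.86 ± 0.26, adjusted p = 0.00268). Pm20d1, which makes uncoupling amino acid lipids, was at 5.86 and 2.77 against 8.85 and 8.60 (-4.41 ± 0.96, adjusted p = 0.0332), and the asparaginase Aspg at 5.23 and 4.37 against 10.36 and 10.61 (-5.68 ± 0.32, adjusted p = 0.00206). Gatm, which starts creatine synthesis, was the 1 effector not called and was at 8.65 and 5.13 against 5.88 and 5.03 (adjusted p = 0.441). Ucp2, Cpt1b and the glycerol kinase gene were not analysed here.

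**Figure D2:**
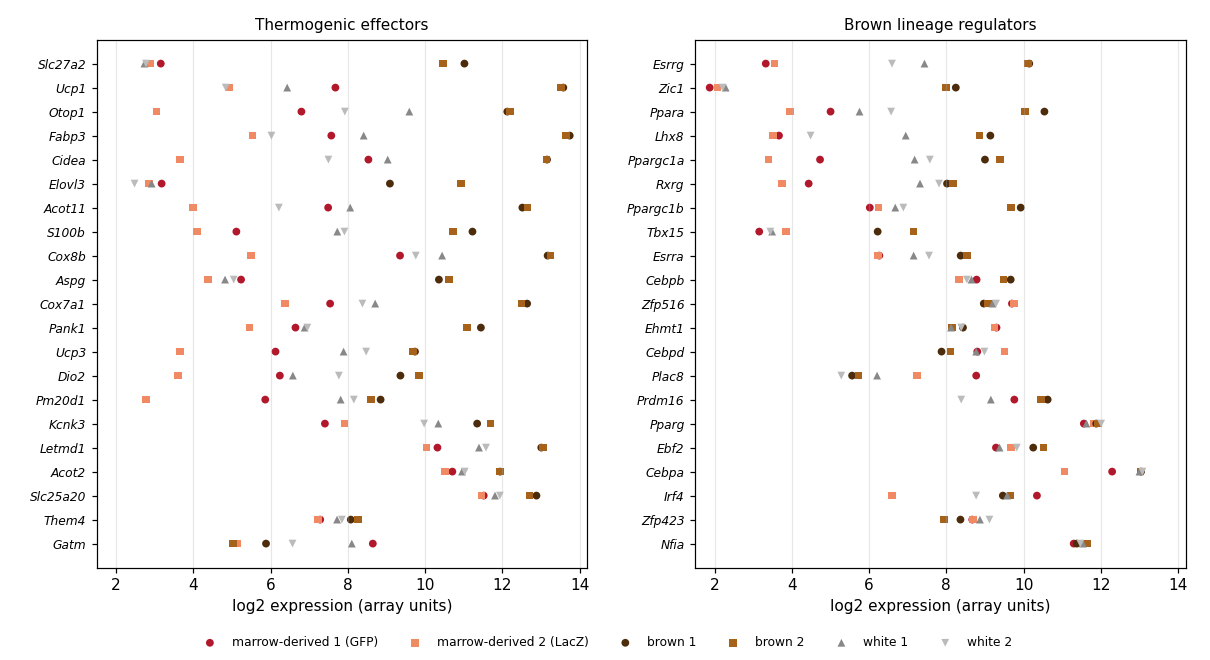
Log2 expression (x axis) of the 21 measured thermogenic effectors and of 21 brown lineage regulators (y axis), 1 point per array for all 6 arrays, ordered by difference within the effectors and within the called regulators, with 7 regulators that were not called at the bottom. The brown arrays stand to the right of both marrow-derived arrays for the 20 called effectors, while Pparg lies at 11.56 and 11.81 in marrow-derived and 11.88 and 11.93 in brown arrays.

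The regulators of the brown lineage differed unevenly: Esrrg, Ppara and the PGC-1 coactivators were far lower, while most of the list was not called. Of 41 measured regulators 10 were lower and 4 higher, with a median of -0.29. That median moved to -0.10 and -0.37 without the GFP and the LacZ array. The estrogen-related receptor Esrrg was at 3.33 and 3.55 against 10.15 and 10.11, 103-fold lower (-6.69 ± 0.30, adjusted p = 0.00185). Its relative Esrra was at 6.26 and 6.23 against 8.37 and 8.53 (-2.20 ± 0.20, adjusted p = 0.00407), while Esrrb did not pass (-0.75 ± 0.23). Ppara, the receptor that turns on fat oxidation genes, was at 5.0 and 3.95 against 10.54 and 10.04, 56.4-fold lower (-5.82 ± 0.46, adjusted p = 0.0035). Ppargc1a and Ppargc1b, which encode the coactivators PGC-1α and PGC-1β, were lower by 35.2-fold (-5.14 ± 0.47, adjusted p = 0.00415) and 12.7-fold (-3.67 ± 0.19, adjusted p = 0.00187). The array values of Ppargc1a were 4.73 and 3.40 against 9.0 and 9.40. Rxrg, a partner of nuclear receptors, was at 4.44 and 3.74 against 8.02 and 8.17 (-4.0 ± 0.30, adjusted p = 0.00321). On the white arrays Rxrg was at 7.32 and 7.81, near brown. Esrrg (7.43 and 6.59), Ppargc1a (7.18 and 7.57), Ppara (5.75 and 6.57) and Ppargc1b (6.68 and 6.89) lay between marrow-derived and brown there. The marrow-derived arrays were thus below white as well as brown arrays for these genes.

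Prdm16, which commits precursors to the brown fate, was at 9.76 and 10.50 against 10.62 and 10.45 and did not pass (-0.41 ± 0.36, adjusted p = 0.466). Ebf2 (9.29 and 9.68 against 10.25 and 10.52), Nfia (11.30 and 11.50 against 11.38 and 11.64) and Cebpa (12.29 and 11.06 against 13.04 and 13.03), factors that act with Pparg on the adipocyte genome, did not pass either. The difference of Cebpa was -1.36 ± 0.41 (adjusted p = 0.0722), and it was -1.98 and -0.74 without the GFP and the LacZ array. For Ebf2 both marrow-derived arrays lay below both brown arrays (-0.90 ± 0.25, adjusted p = 0.0586), and it was lower with probe set means (adjusted p = 0.0235) and with the replicate number as a block (adjusted p = 0.0354). The C/EBP factor Cebpb was lower (-1.02 ± 0.22, adjusted p = 0.0302) and Cebpd higher (1.16 ± 0.28, adjusted p = 0.0415). The zinc finger gene Zfp516 and the methyltransferase gene Ehmt1, a PRDM16 partner, were higher by 0.70 ± 0.15 and 0.99 ± 0.19, and Plac8 by 2.36 ± 0.57. All 5 lost their call without either brown array and without at least 1 marrow-derived array. Esrrg, Ppara, Ppargc1b, Rxrg and the positional factor Zic1 kept their call throughout, and the count of lower calls was 8 and 5 without brown replicate 1 and 2.

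Some genes that act downstream of nerves and hormones were lower. Of 22 measured genes of adrenergic and cyclic AMP signalling 6 were lower and 2 higher, with a median of -0.79 (-0.89 and -0.48 without the GFP and the LacZ array). The phosphodiesterase Pde4d, which breaks down cyclic AMP, was at 6.91 and 7.12 against 9.32 and 9.66 (-2.47 ± 0.19, adjusted p = 0.00329). Adcy3 and Adcy10, which make cyclic AMP, differed by -1.81 ± 0.33 and -2.97 ± 0.57, and Prkar2b, a subunit of protein kinase A, by -1.88 ± 0.31. Gpr3, a receptor that signals without a ligand, was higher (1.48 ± 0.24, adjusted p = 0.0165). The corticotropin receptor Mc2r was lower (-1.74 ± 0.33, adjusted p = 0.0229). With brown replicate 1 and 2 left out in turn, the lower calls numbered 2 and 1 and the higher calls 0 and 0. The β-adrenergic receptor genes were not analysed here.

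Genes through which fat and nerves communicate differed in both directions, with a median of -0.07. The neurotrophin receptor gene Ntrk3 was at 3.70 and 3.53 against 10.97 and 11.12, 172-fold lower (-7.43 ± 0.31, adjusted p = 0.00174). S100b, which brown adipocytes secrete and which favours sympathetic innervation, was at 5.11 and 4.10 against 11.23 and 10.72 (-6.36 ± 0.38, adjusted p = 0.0021), and Clstn3 at 5.83 and 3.55 against 9.29 and 9.43 (-4.67 ± 0.73, adjusted p = 0.0144). Ntrk3 and S100b kept their call throughout. Npy1r, a receptor for the sympathetic cotransmitter neuropeptide Y, was higher at 5.96 and 6.86 against 2.98 and 2.88 (3.48 ± 0.31, adjusted p = 0.00415). In all, 6 of 21 innervation genes were lower and 4 higher, with 2 higher without the LacZ array, and with 2 and 2 lower and 1 and 0 higher without brown replicate 1 and 2. The guidance ligand Slit2 was higher with its brightest probe set (2.86 ± 0.51), but its probe sets were called in opposite directions.

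Among 17 factors that brown fat secretes 8 were lower and 2 higher, Slit2 and Il6, with 0 calls left without either brown array and 5 lower without the LacZ array. The prostaglandin D synthase Ptgds was at 5.77 and 3.17 against 11.93 and 11.54 (-7.26 ± 0.82, adjusted p = 0.00671), and Nrg4, a neuregulin of brown fat, at 8.87 and 6.74 against 12.23 and 12.19 (-4.40 ± 0.67, adjusted p = 0.0138). The vessel growth factors Vegfa (-3.20 ± 0.36) and Vegfb (-3.22 ± 0.32) and the lipase inhibitor Angptl8 (-3.67 ± 0.65) were lower. On the white arrays Nrg4 was at 11.55 and 11.79, Vegfa at 9.77 and 10.07 and Vegfb at 10.12 and 10.40. These were closer to brown than to marrow-derived arrays. Angptl8 stood between the groups there (7.87 and 9.02), and Ptgds (6.17 and 6.07) was far below brown. The cytokine gene Il6 was at 8.61 and 9.46 against 4.61 and 4.93 (4.26 ± 0.66, adjusted p = 0.014). The median of the list was -0.84, and -1.10 and -0.27 without the GFP and the LacZ array. None of 17 genes of creatine and calcium cycling, which can waste energy without Ucp1, was called by limma. An unadjusted p under 0.05 was found for 7 of them and for 6364 of all 17720 genes. The largest difference in that list was in the calcium release channel Ryr2, at 4.44 and 3.38 against 7.68 and 5.87 (adjusted p = 0.0794).

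Mitochondrial fat oxidation was lower almost throughout. Of 23 measured genes 21 were lower and 1 higher, with a median of -1.93. Hadha, the α subunit of the trifunctional protein, was at 8.90 and 9.22 against 12.30 and 12.43, 9.87-fold lower (-3.30 ± 0.19, adjusted p = 0.00206). Cpt2, the inner enzyme of the carnitine shuttle, was at 10.14 and 9.20 against 12.90 and 12.81 (-3.18 ± 0.33, adjusted p = 0.00555), and the short-chain dehydrogenase Acads at 8.73 and 8.34 against 11.44 and 11.06 (-2.72 ± 0.23, adjusted p = 0.00379). The carnitine acetyltransferase Crat (-2.65 ± 0.37), the medium-chain dehydrogenase Acadm (-2.62 ± 0.25) and the thiolase Acaa2 (-2.50 ± 0.21) followed. In each of these 6 genes both marrow-derived arrays lay below both brown arrays, as they did for 32% of all genes, while they lay above them for 33%. Cpt1a, the liver-type gatekeeper of the shuttle, was the higher one, at 9.91 and 9.53 against 8.67 and 8.33 (1.22 ± 0.23, adjusted p = 0.0227). Leaving out brown replicate 1 and 2 in turn, the lower calls numbered 4 and 3 and the higher calls 0 and 0, Cpt1a also lost its call without the GFP array, and Hadha and Acads kept theirs throughout.

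The tricarboxylic acid cycle and its entry by pyruvate dehydrogenase showed 26 of 29 genes lower and 0 higher, with a median of -1.94. The pyruvate dehydrogenase core enzyme Dlat was at 9.09 and 8.63 against 12.27 and 12.12 (-3.33 ± 0.21, adjusted p = 0.0023), its binding protein Pdhx at 7.90 and 8.05 against 11.14 and 11.18 (-3.19 ± 0.19, adjusted p = 0.00206) and the inhibitory kinase Pdk2 at 8.24 and 7.70 against 11.18 and 10.95 (-3.09 ± 0.27, adjusted p = 0.00385). Idh3a, of the isocitrate dehydrogenase that makes NADH, was at 9.69 and 9.49 against 12.72 and 12.53 (-3.04 ± 0.17, adjusted p = 0.00206). All 4 kept their call throughout. Citrate synthase itself, chosen after its values were seen, differed less (Cs, -0.94). The kinase Pdk3 and the phosphatase Pdp1, chosen likewise, had differences above 0 that did not pass (0.57 and 0.85). Lower calls numbered 10 and 9 without brown replicate 1 and 2.

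Most measured genes of complexes I, III and IV were lower, and differences between complexes were not tested. In complex I, which takes electrons from NADH, 26 of 34 subunits were lower and 0 higher, with a median of -1.09, led by Ndufa10 (-2.43 ± 0.17, adjusted p = 0.00286) and Ndufs1 (-2.20 ± 0.19, adjusted p = 0.00397). In complexes III and IV with their carriers and assembly factors 21 of 31 were lower and 1 higher, with a median of -0.94. Among them were the Rieske protein Uqcrfs1 (-2.40 ± 0.21) and the core protein Uqcrc1 (-2.20 ± 0.16). The ATP synthase had the smallest median of these lists, with 8 of 17 lower and a median of -0.60, and 2 genes were higher: the membrane ring subunit Atp5g1 (1.30 ± 0.18, adjusted p = 0.0111) and the inhibitor Atpif1 (1.06 ± 0.24, adjusted p = 0.0366). Coenzyme Q synthesis, which supplies the mobile electron carrier, had 9 of 11 lower and a median of -2.06, with Coq6 (-2.90 ± 0.27), Coq10a (-2.69 ± 0.23) and Coq9 (-2.67 ± 0.21) lowest. With brown replicate 1 and 2 left out in turn, lower calls numbered 3 and 2 in complex I, 5 and 4 in complexes III and IV, 0 and 0 in the ATP synthase (5 without the LacZ array) and 3 and 2 in coenzyme Q synthesis. Atpif1 also lost its call without a marrow-derived array.

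Paralogous subunits of cytochrome c oxidase did not share 1 pattern. Cox8b, the heart-type subunit that brown fat uses, was at 9.35 and 5.48 against 13.17 and 13.24, 55.4-fold lower (-5.79 ± 1.21, adjusted p = 0.0296), while the general Cox8a differed by -1.20 ± 0.16. Cox7a1, the muscle and brown fat form, was at 7.54 and 6.37 against 12.64 and 12.50, 49.0-fold lower (-5.61 ± 0.40, adjusted p = 0.00283), and it kept its call throughout. The general Cox7a2 was at 13.19 and 13.11 against 13.52 and 13.56 and did not pass (-0.39 ± 0.15, adjusted p = 0.132). Cox4i2, the oxygen-regulated isoform of subunit 4, went the other way, at 9.07 and 9.31 against 6.62 and 6.64 (2.56 ± 0.23, adjusted p = 0.00407), and its common partner Cox4i1 differed by -0.83 ± 0.15. The muscle-type Cox6a2 (-0.42 ± 0.52) and the common Cox6a1 (-0.27 ± 0.15) did not pass. Differences between isoforms were not tested against each other. Hexokinases showed a similar split of levels, with the insulin-responsive Hk2 at 9.14 and 7.75 against 12.26 and 12.66 (-4.01 ± 0.49, adjusted p = 0.00777) and Hk1 at 9.51 and 9.71 against 9.77 and 9.23 (0.11 ± 0.26, adjusted p = 0.797). Cox4i2 lost its call without brown replicate 2, and Cox4i1 without either brown array and without the LacZ array.

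**Figure D3:**
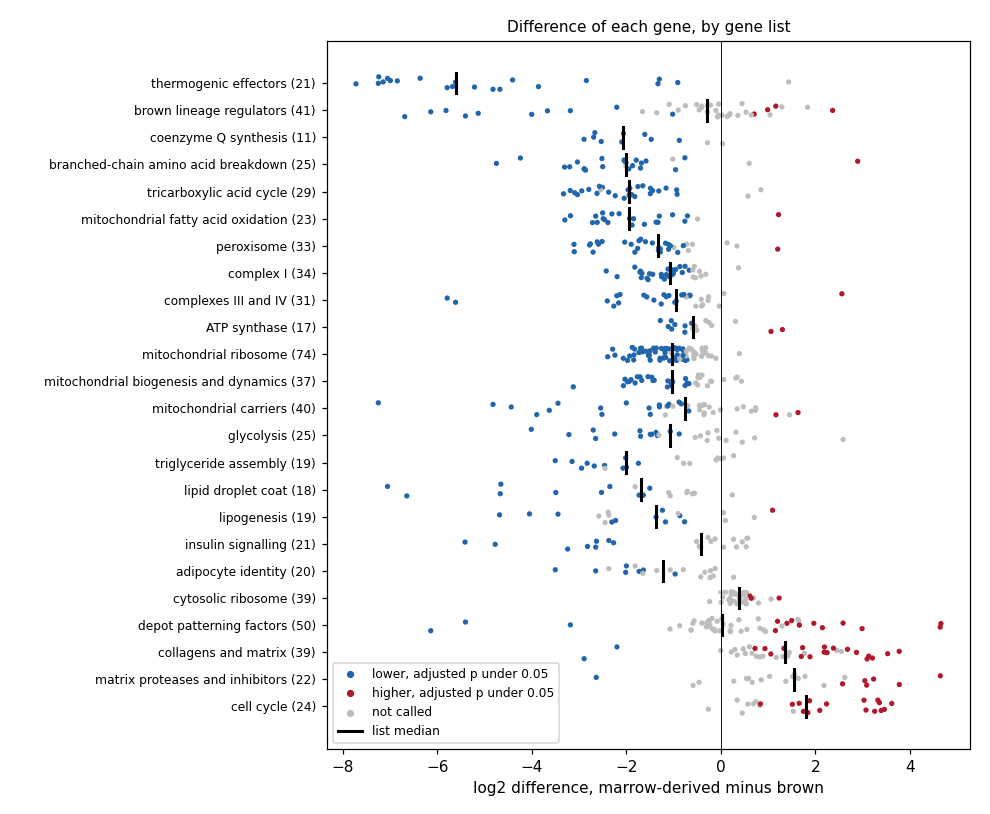
Log2 difference between marrow-derived and brown arrays (x axis) for each measured gene of 24 gene lists (y axis, number of genes in brackets). Blue and red points are genes called lower and higher at limma's adjusted p under 0.05, grey points were not called, and black bars are list medians, which run from -5.61 for thermogenic effectors to 1.79 for the cell cycle.

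Genes that build mitochondria were lower as well. Of 74 mitochondrial ribosomal proteins 51 were lower and 0 higher, with a median of -1.03, led by Mrpl34 (-2.40 ± 0.22, adjusted p = 0.00415) and Mrpl10 (-2.29 ± 0.24, adjusted p = 0.00575). Cytosolic ribosomal proteins did not follow: 3 of 39 were higher and 0 lower, where 8.71% and 11.7% of all genes were. Their median was 0.38, and Rps27 had the largest difference (1.23 ± 0.31, adjusted p = 0.0482). Among 37 genes of mitochondrial genome upkeep, import and dynamics 24 were lower and 0 higher, with a median of -1.03. The mitochondrial deacetylase Sirt3 was at 8.24 and 8.24 against 11.42 and 11.30 (-3.12 ± 0.20, adjusted p = 0.00238), the import pore Tomm40 differed by -2.06 ± 0.24 and the cristae organizer Immt by -2.03 ± 0.16. Inner membrane carriers were lower in 18 of 40 and higher in 2. The coenzyme A carrier Slc25a42 was at 5.33 and 5.62 against 10.23 and 9.60 (-4.44 ± 0.33, adjusted p = 0.00305), and Slc25a34 (-3.90 ± 0.21) and Slc25a35 (-3.63 ± 0.23) were close to it. The aspartate-glutamate carrier Slc25a12 was higher (1.63 ± 0.40), a gene chosen after its values were seen. Leaving out brown replicate 1 and 2 in turn, lower calls numbered 8 and 3 for mitochondrial ribosomal proteins, 4 and 2 for upkeep and 3 and 3 for carriers, and the cytosolic ribosomal calls fell to 0. Those numbered 1 and 0, and the higher carrier calls 0 and 0, without the GFP and the LacZ array.

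Sequences before the start of some of these genes are shown because genes of the oxidation and mitochondrial lists were lower together, and because estrogen-related receptors, of which Esrra and Esrrg were lower, bind the half-site AAGGTCA. RefSeq windows (GRCm38.p6) of 250 bases before to 50 after an annotated start were matched by symbol for 14078 of the 17720 genes. The 7 letters AAGGTCA stood on either strand in 6.17% of 1685 genes called lower, 3.16% of 1204 called higher and 4.52% of all matched genes (3.84% of their 17677 windows, since some genes have several). These shares are a description, with no test. Windows are printed 5′ to 3′ on the gene's strand, up to 30 bases each side and only before the start. The half-site or its reverse complement TGACCTT is in capitals. Of list members called lower and found with it, those that differed most are shown. Ndufs5 (-1.195), Mrps15 (-1.0) and Mrpl36 (-0.97) had it too and are not printed. Acot4 and the genes not printed were chosen after their values were seen. Not all windows were searched for display.
Slc27a2 (chr2:126552774-126552840, + strand): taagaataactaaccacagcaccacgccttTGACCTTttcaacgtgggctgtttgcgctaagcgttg
Rxrg (chr1:167618146-167618212, + strand): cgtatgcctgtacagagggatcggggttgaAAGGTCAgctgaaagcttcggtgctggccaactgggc
Coq10a (chr10:128370231-128370287, - strand): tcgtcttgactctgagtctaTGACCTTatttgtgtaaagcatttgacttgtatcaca
Acadm (chr3:153944856-153944893, - strand): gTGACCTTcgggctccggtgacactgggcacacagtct
Acot4 (chr12:84038336-84038378, + strand): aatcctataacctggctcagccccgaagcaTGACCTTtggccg
Ndufb2 (chr6:39592354-39592420, + strand): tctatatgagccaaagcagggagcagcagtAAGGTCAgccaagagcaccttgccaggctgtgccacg
The half-site ended 214 bases before the start in Slc27a2, 83 in Rxrg, 224 in Coq10a, 243 in Acadm, 7 in Acot4 and 175 in Ndufb2. In the thermogenic list Slc27a2 was the 1 of 17 matched genes with it, and it was in 2 of 19 genes of fat oxidation, 3 of 31 of complex I, 0 of 23 of complexes III and IV and 0 of 21 of branched-chain amino acid breakdown. A match is not a binding site, and no match says only that these letters are not in this window.

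A second motif was chosen for display after its shares were seen. The letters CCGGAAG, a core that ETS factors such as the mitochondrial regulator GABP bind, stood on either strand in 35.4% of 65 matched mitochondrial ribosomal genes and 39.1% of 23 genes of complexes III and IV. They stood in 20.2% of genes called lower, 12.1% of genes called higher and 15.2% of all matched genes (13.2% of their windows). Thermogenic effectors had it in 2 of 17, and complex I (12.9%), fat oxidation (10.5%) and branched-chain amino acid breakdown (9.52%) were below the share of all genes, so the metabolic lists did not share it evenly. The cyclic AMP response element TGACGTCA stood in 3.92% of genes called lower, 2.24% of genes called higher and 2.97% of all matched genes, and matches of different motifs may overlap. Windows with CCGGAAG or its reverse complement CTTCCGG in capitals are shown for a thermogenic, a fat oxidation and a ribosomal gene.
Letmd1 (chr15:100468914-100468980, + strand): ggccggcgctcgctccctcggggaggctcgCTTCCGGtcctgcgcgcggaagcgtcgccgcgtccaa
Cpt2 (chr4:107923666-107923732, - strand): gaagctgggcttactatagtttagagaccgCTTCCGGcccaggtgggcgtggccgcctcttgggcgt
Mrpl34 (chr8:71464859-71464925, + strand): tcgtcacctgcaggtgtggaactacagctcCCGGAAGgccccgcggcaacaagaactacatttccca
Letmd1, a mitochondrial inner membrane protein needed for heat production, was at 10.32 and 10.04 against 13.01 and 13.04 (-2.85 ± 0.18, adjusted p = 0.0023).

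Peroxisomes, which shorten very long fatty acids and make ether lipids, followed the mitochondria. Of 33 measured genes 26 were lower and 1 higher, with a median of -1.32. The list mean was 8.71 and 8.35 on the marrow-derived arrays and 9.99 and 10.03 on the brown arrays. On the white arrays it was 9.72 and 9.93, near brown. The bifunctional oxidation enzyme Ehhadh was at 7.15 and 6.64 against 10.10 and 9.90 (-3.10 ± 0.23, adjusted p = 0.00297), the thiolase Acaa1b at 8.66 and 7.08 against 11.02 and 10.94 (-3.11 ± 0.51, adjusted p = 0.0162) and the first enzyme of ether lipid synthesis, Gnpat, at 8.52 and 8.71 against 11.25 and 11.40 (-2.70 ± 0.18, adjusted p = 0.00268). The phytanic acid hydroxylase Phyh (-2.78 ± 0.40) and the transporter Abcd2 (-2.76 ± 0.56) were lower. Far1, which makes fatty alcohols for ether lipids, was the 1 higher member (1.20 ± 0.21) and was chosen after its values were seen. Ehhadh and Gnpat kept their call throughout, and lower calls numbered 2 and 2 without brown replicate 1 and 2.

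Breakdown of branched-chain amino acids, which brown fat uses as fuel, was lower at nearly every step. Of 25 genes 21 were lower and 1 higher, with a median of -2.01. The list mean was 9.02 and 8.685 on the marrow-derived arrays and 10.87 and 10.85 on the brown arrays. On the white arrays it was 10.68 and 10.82, near brown, so this level was not particular to brown fat. Bcat1, the cytosolic transaminase, was at 2.67 and 3.69 against 8.21 and 7.65 (-4.75 ± 0.53, adjusted p = 0.00647), and white arrays were at 10.82 and 9.65. The dehydrogenase subunits Bckdha (6.72 and 6.79 against 11.06 and 10.94, adjusted p = 0.00185) and Bckdhb (8.67 and 8.28 against 11.73 and 11.62, adjusted p = 0.00272) and the propionyl-CoA carboxylase subunit Pccb (9.01 and 8.75 against 12.35 and 12.02, adjusted p = 0.0021) were lower and kept their call throughout. Slc7a5, which imports these amino acids, was higher, at 6.81 and 7.28 against 4.37 and 3.93 (2.89 ± 0.24, adjusted p = 0.00382), a gene chosen after its values were seen. Lower calls numbered 8 and 7 without brown replicate 1 and 2.

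Lipid storage genes were lower in part. Of 18 lipid droplet genes 10 were lower and 0 higher, with a median of -1.69. Plin5, which ties droplets to mitochondria in oxidative tissue, was at 6.30 and 3.70 against 11.66 and 11.63 (-6.65 ± 0.81, adjusted p = 0.00793). Pnpla3, a lipase relative, was at 6.07 and 4.85 against 9.83 and 10.41 (-4.66 ± 0.64, adjusted p = 0.0103), and Cideb at 3.03 and 3.81 against 6.85 and 6.97 (-3.49 ± 0.29, adjusted p = 0.00377). Cidec, the Cidea relative of large droplets, was at 12.01 and 10.65 against 12.34 and 12.47 and did not pass (-1.07 ± 0.44, adjusted p = 0.151). Triglyceride assembly had 10 of 19 genes lower and 0 higher, with a median of -2.0, led by Gpd1, which makes glycerol phosphate (10.82 and 9.05 against 13.47 and 13.42, adjusted p = 0.0156), and the acyltransferase Agpat2 (-3.15 ± 0.75). That median was -2.27 and -1.33 without the GFP and the LacZ array. With brown replicate 1 and 2 left out in turn, lower calls numbered 2 and 0 for droplets and 1 and 0 for triglyceride assembly.

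Fatty acid synthesis was lower in 10 of 19 genes and higher in 1, with a median of -1.37. The higher gene was Elovl1, chosen after its values were seen. Mlxipl, the carbohydrate-responsive regulator of lipogenesis, was at 7.75 and 5.98 against 11.52 and 11.58 (-4.68 ± 0.60, adjusted p = 0.00883), the elongase Elovl6 at 10.09 and 7.07 against 12.39 and 12.87 (-4.05 ± 0.97, adjusted p = 0.0414) and the citrate carrier Slc25a1 at 8.28 and 6.93 against 10.71 and 11.39 (-3.45 ± 0.50, adjusted p = 0.0119). Lower calls numbered 6 without the LacZ array and 0 without either brown array. Of 16 genes of fatty acid uptake and activation 3 were lower, Slc27a2, Fabp3 and the lipoprotein receptor Vldlr (-3.88 ± 0.52, adjusted p = 0.00995), and 1 was higher, the transporter relative Slc27a3 (1.69 ± 0.26, adjusted p = 0.0134). Of 13 lipolysis genes 4 were lower and 0 higher, with a median of -1.64 (-2.0 and -0.97 without the GFP and the LacZ array). These were the niacin receptor Hcar2 (-2.97 ± 0.47, adjusted p = 0.015), the lipase inhibitor G0s2 (-2.35 ± 0.33), hormone-sensitive lipase Lipe (-1.73 ± 0.23) and the triglyceride lipase Pnpla2 (-1.64 ± 0.35). Lipolysis calls numbered 7 without the GFP or the LacZ array and 0 without either brown array, and those of uptake were 1 and 1.

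Among 20 genes shared by all adipocytes 7 were lower and 0 higher, with a median of -1.22 that was -1.86 and -0.76 without the GFP and the LacZ array. The list mean reached 11.44 with GFP and 10.56 with LacZ, against 12.18 and 12.29 on the brown arrays. The insulin-responsive glucose transporter Slc2a4 was at 9.78 and 9.32 against 12.07 and 12.34 (-2.65 ± 0.23, adjusted p = 0.00385), and Dgat2 (-2.02 ± 0.42) and Lpin1 (-2.0 ± 0.41) were lower. The part that this level of shared adipocyte genes plays in the metabolic lists was not tested. Lower calls numbered 13 without the GFP array and 1 and 0 without brown replicate 1 and 2.

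Genes of white adipocytes differed from brown cells in both directions. Of 23 measured genes 3 were higher and 6 lower, with a median of -0.23 that was -0.04 and 0.05 without the GFP and the LacZ array and -0.43 and 0.17 without brown replicate 1 and 2. The appetite-restraining hormone leptin (Lep) was at 10.07 and 10.55 in marrow-derived and 11.83 and 11.86 in brown arrays (-1.53 ± 0.21, adjusted p = 0.0101), while white arrays were at 12.99 and 12.97. Agt, angiotensinogen, was at 6.82 and 6.57 against 3.92 and 5.27 and did not pass (adjusted p = 0.0985, a gene chosen after its values were seen). Nampt, which makes the NAD precursor nicotinamide mononucleotide, was lower (-2.05 ± 0.18, adjusted p = 0.00389), and the imprinted gene Nnat too (-2.55 ± 0.38, adjusted p = 0.0131). The higher members were the patterning factors Tcf21 and Hoxc10 and the peptide hormone Apln (2.57 ± 0.63, adjusted p = 0.0444). White arrays had Tcf21 at 6.43 and 4.32, Hoxc10 at 3.18 and 3.62 and Apln at 5.56 and 5.42, and for Hoxc10 and Apln these lay near the brown arrays (3.28 and 2.90 and 5.42 and 5.44). Leaving out brown replicate 1 and 2 in turn, the higher calls numbered 1 and 0 and the lower calls 1 and 1.

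Some genes of insulin action were lower. Of 21 measured genes 8 were lower and 0 higher, with a median of -0.43. The receptor adaptor Grb14, which restrains insulin signalling, was at 5.29 and 5.98 against 11.16 and 10.93, 42.7-fold lower (-5.41 ± 0.27, adjusted p = 0.00187). The glycogen genes Gys2 (7.03 and 5.14 against 10.74 and 10.99, adjusted p = 0.00881) and Ppp1r3c (6.83 and 7.26 against 10.08 and 10.49, adjusted p = 0.003) and the kinase Akt2 (-2.63 ± 0.30) were lower. The receptor Insr, chosen after its values were seen, was at 10.12 and 9.74 against 10.12 and 9.98. Of 25 glycolysis genes 13 were lower and 0 higher, with a median of -1.07, led by Hk2 and the liver-type phosphofructokinase Pfkl (-3.22 ± 0.19, adjusted p = 0.00208). Ldhb, which favours oxidation of lactate, differed by -2.70 ± 0.27. Lower calls without brown replicate 1 and 2 numbered 4 and 3 for insulin action and 3 and 1 for glycolysis, and Grb14, Ppp1r3c and Pfkl kept theirs throughout.

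Smaller sets differed in single genes, where 8.71% of all genes were higher and 11.7% lower. Heme synthesis was lower in 5 of 14 genes, led by its first enzyme Alas1 (-2.45 ± 0.38, adjusted p = 0.0145), with 0 calls without either brown array and 3 and 2 without the GFP and the LacZ array. Of 20 retinoid genes the retinol saturase Retsat was lower (-2.55 ± 0.21, adjusted p = 0.00377), while the binding protein Rbp7 (2.10 ± 0.37) and the retinol dehydrogenase Rdh5 (1.40 ± 0.24) were higher, with 1 and 4 higher without the GFP and the LacZ array. Circadian genes were lower in 5 of 18, among them Hlf (-3.52 ± 0.17, adjusted p = 0.00187), Nr1d1 (-2.0 ± 0.26, adjusted p = 0.00904) and Dbp (-1.35 ± 0.29), and higher in 1, the core factor Arntl (1.31 ± 0.32), with 1 and 1 lower and 0 higher without brown replicate 1 and 2. Times of tissue collection are not given in the labels used here. Among 33 nuclear receptors 5 were lower and 4 higher, with 2 and 2 and 0 and 0 without brown replicate 1 and 2, and 1 higher without the LacZ array. Nr5a2 was higher at 9.91 and 10.35 against 7.32 and 6.97 (2.99 ± 0.39, adjusted p = 0.009), and the progesterone receptor Pgr was lower (-2.03 ± 0.26, adjusted p = 0.00855).

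Positional genes differed between marrow-derived and brown cells in both directions. Hox genes lie in 4 clusters in which higher numbers mark more posterior positions. In the Hoxa cluster Hoxa10 was at 8.07 and 7.86 against 3.27 and 3.60, 23.1-fold higher (4.53 ± 0.21, adjusted p = 0.00185), Hoxa9 at 9.28 and 9.65 against 5.98 and 6.49 (3.23 ± 0.25, adjusted p = 0.00329) and Hoxa11 differed by 1.69 ± 0.39. The more anterior Hoxa2 (0.87), Hoxa3 (-0.26), Hoxa4 (-1.24), Hoxa5 (-0.53) and Hoxa7 (near 0) did not pass, and neither did the most posterior members Hoxa13 (-0.03) and Hoxd13 (-0.26). In the Hoxd cluster Hoxd10 was at 8.15 and 8.97 against 3.37 and 3.71, 32.5-fold higher (5.02 ± 0.31, adjusted p = 0.00217), with Hoxd9 (2.01 ± 0.18, adjusted p = 0.00421) and Hoxd8 (1.0 ± 0.18, adjusted p = 0.0192) beside it. White arrays, from the same gonadal depot as the marrow-derived cells, had Hoxd10 at 2.42 and 2.38, Hoxa10 at 3.70 and 4.02 and Hoxc10 at 3.18 and 3.62, near the brown arrays.

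The Hoxc cluster split within itself. Hoxc10 was at 7.79 and 6.90 against 3.28 and 2.90, 19.1-fold higher (4.26 ± 0.35, adjusted p = 0.00379), while Hoxc5 (6.20 and 6.36 against 9.19 and 9.26, adjusted p = 0.00427), Hoxc4 (-1.72 ± 0.27, adjusted p = 0.0148) and Hoxc8 (-0.85 ± 0.21, adjusted p = 0.0447) were lower. In the Hoxb cluster the 1 called gene was Hoxb3 (1.16 ± 0.25, adjusted p = 0.0304). Over the 33 measured Hox genes 8 were higher and 3 lower, where 8.71% and 11.7% of all genes were. Hoxa9, Hoxa10 and Hoxd10 kept their call throughout, while Hoxa11, Hoxb3, Hoxc8 and Hoxd8 lost theirs without a marrow-derived array. With brown replicate 1 and 2 left out in turn, the higher calls numbered 2 and 2 in Hoxa, 0 and 0 in Hoxb, 1 and 0 in Hoxc and 2 and 1 in Hoxd.

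**Figure D4:**
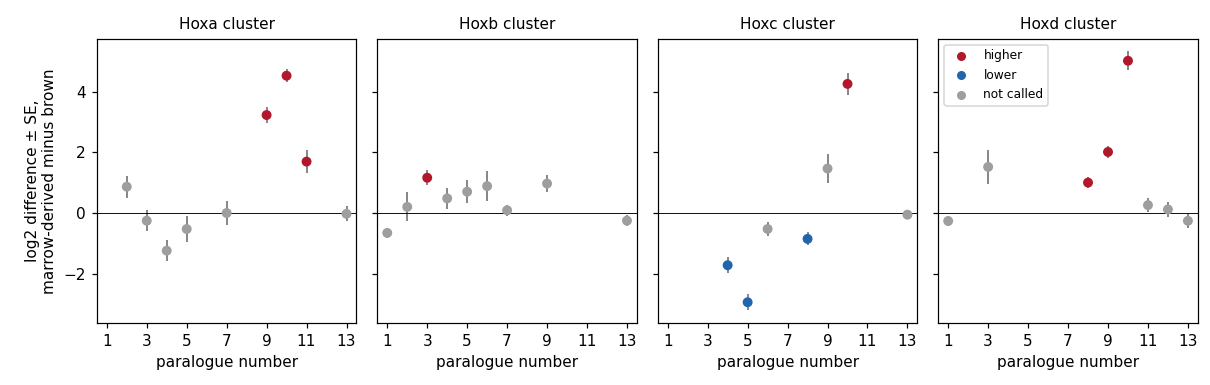
Log2 difference ± SE between marrow-derived and brown arrays (y axis, n = 2 arrays per group) for each measured Hox gene by its number in the cluster (x axis), with 1 panel per cluster. Red points were called higher, blue lower and grey were not called, and the 3 largest differences are Hoxd10, Hoxa10 and Hoxc10.

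Among 50 other positional transcription factors 11 were higher and 3 lower. Zic1, an anterior and dorsal factor of interscapular fat, was at 1.87 and 2.07 against 8.25 and 7.98, 70.5-fold lower (-6.14 ± 0.18, adjusted p = 0.000945). Lhx8 (3.67 and 3.52 against 9.14 and 8.86, adjusted p = 0.0116) and Tbx15 (3.16 and 3.84 against 6.22 and 7.15, adjusted p = 0.00771) were lower too. Tcf21, a factor of visceral mesenchyme, was higher at 6.96 and 8.03 against 2.59 and 3.09 (4.66 ± 0.75, adjusted p = 0.016), as were Foxf1 at 7.29 and 9.75 against 4.11 and 3.65 (4.64 ± 0.82, adjusted p = 0.0198) and Wt1, the Wilms tumour factor, at 7.44 and 5.75 against 3.71 and 4.30 (2.58 ± 0.57, adjusted p = 0.0332). White arrays had Tcf21 at 6.43 and 4.32 and Foxf1 at 4.20 and 3.31. Tbx18 (1.97 ± 0.35) and the orphan receptor Nr2f1 (2.15 ± 0.52) were higher as well. Gata6 (1.65 ± 0.50, adjusted p = 0.0767), Tbx20 (-0.63 ± 0.20, adjusted p = 0.0786), Gata4 (-0.18) and Hand2 (-0.26), which also act in visceral tissues, were not called. Leaving out brown replicate 1 and 2 in turn, the higher calls numbered 0 and 0 and the lower calls 2 and 1, and they were 9 and 6 for the higher calls without the GFP and the LacZ array.

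Markers of other cell types were measured because floating adipocytes can carry attached cells. Mesothelial markers, of the lining of the body cavity, were higher in 7 of 11 members, where 8.71% of all genes were higher, with a median of 2.58. Upk3b was at 10.09 and 8.06 against 3.38 and 4.0, 41.9-fold higher (5.39 ± 0.68, adjusted p = 0.00856), and the keratin Krt19 at 8.99 and 7.18 against 3.28 and 3.54 (4.68 ± 0.58, adjusted p = 0.00833). White arrays, also from gonadal fat, had Upk3b at 9.25 and 8.83 and Krt19 at 8.39 and 8.18. Fibroblast and fat progenitor markers were higher in 8 of 22 and lower in 1, dermatopontin (Dpt, -1.41 ± 0.31, chosen after its values were seen), with a median of 1.94. The proteoglycan Dcn was at 11.97 and 10.95 against 8.51 and 6.75 (3.83 ± 0.70, adjusted p = 0.021), the protease Dpp4 at 10.37 and 8.68 against 6.03 and 5.42 (3.81 ± 0.64, adjusted p = 0.0172) and Thy1 at 8.34 and 9.13 against 5.09 and 4.98 (3.70 ± 0.34, adjusted p = 0.00436). With brown replicate 1 and 2 left out in turn, higher calls numbered 1 and 0 for mesothelium and 3 and 3 for fibroblasts, and Dcn lost its call without a marrow-derived array.

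Endothelial markers were high in both groups. Pecam1 was at 10.98 and 11.91 against 10.55 and 10.02 (adjusted p = 0.166) and the endothelial cadherin Cdh5 at 11.10 and 11.94 against 10.32 and 9.67 (adjusted p = 0.0705), while white arrays had them at 7.80 and 6.66 and 7.46 and 6.56. Of 27 markers 3 were higher, Plvap of fenestrated vessels (3.10 ± 0.26, adjusted p = 0.00379), Vwf (2.54 ± 0.46, adjusted p = 0.0203) and Erg (1.40 ± 0.31, adjusted p = 0.0347), with a median of 1.0, and 1 and 0 without brown replicate 1 and 2. Smooth muscle and pericyte markers were higher in 4 of 14, with Tagln at 10.94 and 11.82 against 7.81 and 7.57 (3.69 ± 0.37, adjusted p = 0.00515) and Myh11 at 9.73 and 10.55 against 6.82 and 6.30 (3.58 ± 0.34, adjusted p = 0.00446). Acta2 differed by 2.61 ± 0.39 and Notch3 by 1.70 ± 0.37. Smooth muscle calls numbered 1 and 0 without brown replicate 1 and 2. The part of these cell types in the other results was not tested.

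Few blood cell markers other than Mertk passed with both arrays in the fit. None of 10 neutrophil, 16 T and NK cell, 10 mast cell or 13 class II presentation genes was called by limma, where 1, 1, 1 and 0 had an unadjusted p under 0.05. Without the LacZ array 2 neutrophil, 5 T and NK cell and 2 class II genes were called higher. Vpreb1 was higher among 12 B cell markers (2.14 ± 0.37, adjusted p = 0.0186), the erythropoietin receptor Epor among 8 erythroid markers (2.23 ± 0.39, adjusted p = 0.0195) and Vwf among 8 platelet markers. Hematopoietic progenitor markers had 1 of 16 higher, Erg, and 1 lower, Hlf, with a median of 0.51. None of 12 epithelial markers was called, where 1 had an unadjusted p under 0.05, and Krt7 had the largest difference (1.94 ± 0.64). Among 13 Schwann cell and neuron genes the deubiquitinase Uchl1 was higher (8.49 and 10.09 against 4.66 and 4.34, adjusted p = 0.0142) along with Cnp (0.76 ± 0.19), and S100b lower.

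Skeletal muscle transcripts marked 1 brown array. The list mean was 5.76 on brown replicate 1 and 4.65 on brown replicate 2, against 4.57 and 4.55 on the marrow-derived arrays. Acta1, skeletal actin, was at 5.78 and 6.39 against 9.44 and 6.91 (adjusted p = 0.153). Of 30 genes 2 were lower, Tnnc1 (-3.36 ± 0.67, adjusted p = 0.0268) and the myosin light chain Myl1 (9.04 and 8.34 against 11.47 and 11.67, adjusted p = 0.00634), and Tpm2 was higher (2.32 ± 0.40, adjusted p = 0.0189). Among all genes 11.7% were lower and 8.71% higher. The median of the list was -0.34, and 0.01 and -0.55 without brown replicate 1 and 2.

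**Figure D5:**
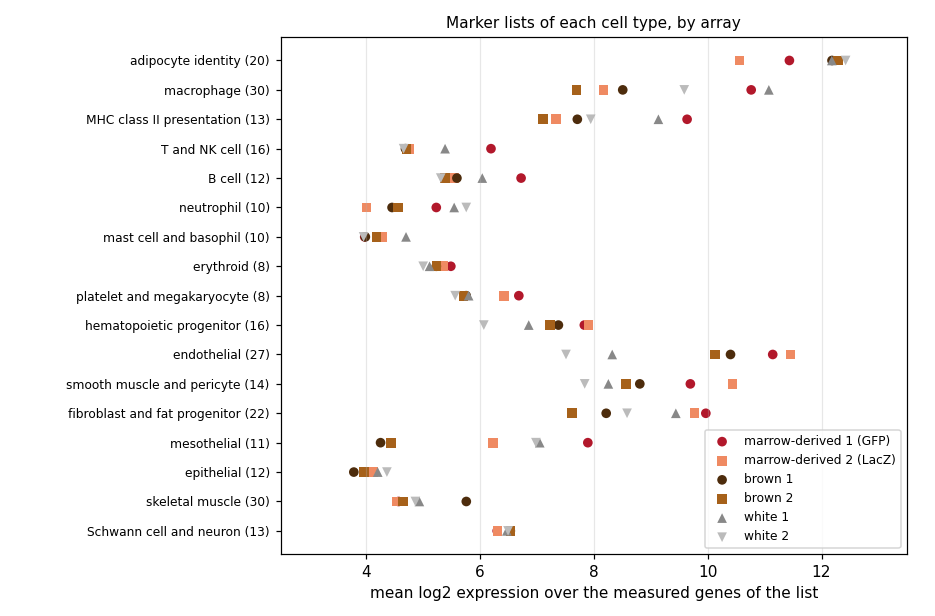
Mean log2 expression (x axis) over the measured genes of each marker list (y axis, number of genes in brackets), 1 point per array for all 6 arrays. The GFP array stands above the LacZ array for macrophage, class II, T and B cell and mesothelial markers, and brown replicate 1 stands above all other arrays for skeletal muscle.

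Matrix genes were higher in marrow-derived cells. Of 39 collagen and matrix genes 18 were higher and 2 lower, with a median of 1.36. The laminin Lama2 was at 9.32 and 9.77 against 6.32 and 5.23, 13.7-fold higher (3.77 ± 0.53, adjusted p = 0.0112), the fibrillar collagen Col1a2 at 11.67 and 11.80 against 8.76 and 7.66 (3.53 ± 0.38, adjusted p = 0.00626) and tenascin C, Tnc, at 10.07 and 9.81 against 7.58 and 5.89 (3.21 ± 0.55, adjusted p = 0.0182). Collagen VI chains Col6a3 (3.09 ± 0.18), Col6a2 (3.13 ± 0.36) and Col6a1 (2.87 ± 0.38) were higher, while Col27a1 (-2.89 ± 0.48) and the crosslinking enzyme Lox (-2.20 ± 0.27) were lower. Lox and Col6a1 were chosen after their values were seen. Among 22 matrix proteases and inhibitors 6 were higher and 1, Mmp19, lower (-2.64 ± 0.46). The gelatinase Mmp2 was at 9.51 and 9.64 against 5.72 and 4.13 (4.64 ± 0.93, adjusted p = 0.0268), its activator Mmp14 at 7.94 and 8.04 against 5.06 and 4.46 (3.23 ± 0.50, adjusted p = 0.014) and the aggrecanase Adamts15 at 9.83 and 10.27 against 6.46 and 6.09 (3.77 ± 0.28, adjusted p = 0.00316). Leaving out brown replicate 1 and 2 in turn, higher calls numbered 9 and 6 for matrix and 2 and 2 for proteases, and Mmp2 also lost its call without a marrow-derived array. Fibroblast markers moved the same way, and their part in the matrix result was not tested.

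Growth factor pathways differed gene by gene. In the Wnt pathway 4 of 40 genes were higher and 3 lower, where 8.71% and 11.7% of all genes were. The secreted inhibitor Sfrp2 was at 9.50 and 8.54 against 4.84 and 4.31, 21.8-fold higher (4.44 ± 0.44, adjusted p = 0.00514), while the ligand Wnt5a (-3.21 ± 0.50, adjusted p = 0.0144) and the target and feedback inhibitor Axin2 (-2.99 ± 0.57, adjusted p = 0.0237) were lower. In the TGF-β and BMP pathway 9 of 46 were higher and 2 lower, with Gdf10 (2.70 ± 0.51, adjusted p = 0.0236) and Bmp2 (2.06 ± 0.32, adjusted p = 0.0142) leading and Gdf5 lower (-1.47 ± 0.31, adjusted p = 0.0289). Of 34 angiogenic genes 7 were higher and 4 lower. Angpt2, which destabilizes vessels, was at 9.95 and 10.91 against 7.39 and 6.62 (3.43 ± 0.50, adjusted p = 0.0125) and placental growth factor, Pgf, at 8.83 and 9.97 against 6.39 and 5.80 (3.31 ± 0.46, adjusted p = 0.0109). Angpt1, the ligand that stabilizes vessels, was lower (-1.86 ± 0.19), a gene chosen after its values were seen. Calls without brown replicate 1 and 2 were 2 and 0 higher for Wnt, 0 and 0 for TGF-β and BMP (3 without the LacZ array) and 1 and 0 for angiogenic genes.

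Cell cycle genes were higher in marrow-derived adipocytes. Of 24 measured genes 16 were higher and 0 lower, with a median of 1.79, and 23 of the 24 differences were above 0. Top2a, the topoisomerase of dividing cells, was at 8.29 and 8.70 against 4.56 and 5.21, 12.2-fold higher (3.61 ± 0.53, adjusted p = 0.0124). The proliferation antigen Mki67 was at 9.49 and 9.55 against 6.03 and 6.22 (3.39 ± 0.54, adjusted p = 0.0153), and the mitotic kinase Cdk1 at 9.01 and 9.03 against 5.52 and 6.01 (3.25 ± 0.61, adjusted p = 0.0223). Birc5 (3.46 ± 0.64), Ccnb2 (3.35 ± 0.64) and Bub1 (3.32 ± 0.74) were higher too. In white arrays Top2a was at 7.80 and 6.32 and Mki67 at 8.47 and 6.79. The calls numbered 4 without the GFP array, 5 without the LacZ array and 0 without either brown array, while the median stayed between 1.72 and 1.93.

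Inflammatory mediators were higher in 5 of 36 genes and lower in 0, with a median of 1.07 (0.40 and 1.47 without the GFP and the LacZ array). The monocyte chemokine Ccl8 was at 11.71 and 9.46 against 5.95 and 5.86 (4.68 ± 0.86, adjusted p = 0.0216). On the white arrays, also from gonadal fat, Ccl8 was at 11.12 and 9.505, near the marrow-derived arrays. The list mean was 8.35 and 7.08 on marrow-derived, 6.49 and 6.41 on brown and 8.55 and 7.92 on white arrays. Besides Il6, the inducible nitric oxide synthase Nos2 (1.36 ± 0.31, adjusted p = 0.0353) and the chemokines Cxcl12 (1.28 ± 0.19, adjusted p = 0.0124) and Cxcl9 (1.02 ± 0.17, adjusted p = 0.0169) passed. The calls numbered 15 without the LacZ array and 0 without either brown array. Complement genes were higher in 2 of 16, C1s1 (1.13 ± 0.15) and the inhibitor Serping1 (2.69 ± 0.18, adjusted p = 0.00253), and lower in 1, Cd59a (-1.39 ± 0.20), with 9 higher without the LacZ array. The macrophage markers differed between the GFP and LacZ arrays in the way given above, and their part in these results was not tested. Immediate early and heat shock genes, which respond to tissue digestion, were higher in 3 of 27 and lower in 1. Among all genes 8.71% were higher and 11.7% lower. The orphan receptor Nr4a3 was at 9.05 and 9.84 against 7.96 and 7.33 (1.80 ± 0.45, adjusted p = 0.0465), Ier3 differed by 1.06 ± 0.16, Egr2 by 0.97 ± 0.24 and the mitochondrial chaperone Hspe1 by -0.71 ± 0.16, with 0 calls without either brown array.

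Beyond the lists, the 15 largest called differences in each direction named further genes. Lower were Cpn2, a carboxypeptidase N subunit (3.03 and 3.19 against 9.54 and 9.77, 93.0-fold lower), Ltbp2, a latent TGF-β binding protein (4.45 and 3.36 against 10.44 and 10.29, 88.1-fold lower), and the RNA Plet1os (2.44 and 3.02 against 9.97 and 9.73, 139-fold lower). Their adjusted p-values were 0.00206, 0.00206 and 0.00187, and all 3 kept their call throughout. Higher were Ptchd4, a Patched-domain protein (8.40 and 9.61 against 3.77 and 2.98, 49.4-fold higher, adjusted p = 0.00379), and Piezo2, a mechanically gated channel (10.36 and 10.72 against 5.34 and 5.31, 37.1-fold higher, adjusted p = 0.0023). White arrays had Ptchd4 at 8.42 and 8.26, near the marrow-derived arrays, and Piezo2 at 5.92 and 5.04, near the brown arrays. Sox11, a developmental transcription factor, was at 9.78 and 9.32 against 5.38 and 4.60 (4.56 ± 0.38, adjusted p = 0.00377). Clca2 (9.18 and 9.83 against 3.92 and 4.05), the endothelial proteoglycan Esm1 (6.72 and 8.02 against 2.27 and 3.19) and Igfbp6, a carrier of insulin-like growth factor (9.84 and 7.27 against 4.02 and 3.66), were higher with adjusted p of 0.00655, 0.00639 and 0.0187. Ptchd4, Piezo2 and Sox11 kept their call throughout.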

How the data were processed

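RNA of 6 samples was amplified, labelled with biotin and hybridised to 1-colour arrays. The authors deposited log2 values, 1 column per sample; RMA and Partek are named, without versions, per the submitters' processing notes, and the log2 scale was read from the values. Of 43057 probe sets 33565 had 1 gene symbol, 857 several (left out) and 8635 were unnamed here; 33376 of the probe sets with 1 symbol matched RefSeq (GRCm38.p6). Each of the 17720 genes was read from its brightest probe set by the mean of 6 arrays; 8651 genes had several, of which 27 held called probe sets of opposite direction.

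Group means of all 6 arrays were fitted with limma 3.58.1 in R 4.3.3 (eBayes, 3 residual degrees of freedom, Benjamini-Hochberg adjustment, threshold 0.05), and the marrow-derived against brown contrast was taken. On simulated data of 17720 genes with 50 changed at each size, the fit recovered 14, 60, 82 and 86% of log2 changes of 1, 2, 3 and 4. The members and lists were chosen with earlier results of these data known. Genes were named by rule: the 15 largest called differences each way, any thermogenic, regulator, isoform, Hox, patterning or sex-linked gene, up to 6 called members of each other list or, with none called, the largest difference, and fixed cell type markers. Exceptions are marked as chosen after their values were seen.

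Alternatives were the 4 arrays alone, median centring, quantile normalization, a minimum mean of 5, probe set means, no moderation, a trend, a replicate block and each array left out.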

Additional observations from a re-analysis of the deposited data

How the results depend on the processing

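No called gene that was named by the rule changed direction under any alternative run. Genes chosen after their values were seen were not part of this check. Without moderation of the variances the counts dropped to 296 higher and 665 lower. Leaving out 1 array at a time gave 61 to 1405 higher and 239 to 1723 lower genes, lowest without brown replicate 2. Median centring moved the median of all genes to -0.07 and the share of calls that were higher from 42.7% to 37.5%. Same-numbered deviations of marrow-derived and brown samples had a correlation of -0.0038. It was 0.205 for marrow-derived and white and 0.277 for brown and white samples. Such correlations cannot tell whether samples shared an animal or a day. A fit with the number as a block called 1279 higher and 1787 lower. The block shared 2814 calls with the fit without it. Using only the 4 arrays called 1405 and 1716. In the simulated data 14% of log2 changes of 1 were called. Far fewer genes changed there than were called here, so that share does not carry over. With 2 arrays per group, a gene not called is not shown to be equal. Signal near background or near the top of the range limits folds.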
